A study of Mus musculus with 6 samples.

Results

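Myelin and oligodendrocyte genes were followed as a group of 30 mouse genes, named by symbol from 32288 genes in all, across 6 coronal hemibrain sections measured by Visium spatial transcriptomics (ST). Each gene was present in every section's gene list, and all 30 had at least 1 unique molecular identifier (UMI, 1 captured RNA molecule) in white matter. The members were Mbp, Mobp, Mog, Mag, Mal, Cnp, Cldn11, Ermn, Opalin, Anln, Ppp1r14a, Tspan2, Gjc3, Tmem88b and Hapln2, which build the sheath and its paranodes, Trf, Ugt8a, Aspa, Gpr37, Fa2h, Enpp2, Car2, Cryab, Qdpr and Klk6, which are enzymes, secreted proteins, a chaperone and a receptor, and the transcription factors Sox10, Myrf, Nkx6-2, Olig1 and Olig2. Every group was 1 section from female mice homozygous for human APOE3 (E3) or APOE4 (E4), whose coding sequence stands in place of the mouse gene under the mouse Apoe promoter. The groups were E3 young and E4 young at 3 months, E3 aged and E4 aged at 24 months, and E3 5xFAD and E4 5xFAD at 12 months. The 5xFAD transgenes are driven by the neuronal Thy1 promoter, lay down amyloid, and came in through a cross to a B6SJL line, so that transgenes, an age of 12 months and strain background cannot be told apart in any 5xFAD value below. The names of both 5xFAD sections also carried a prefix that differed from that of the other 4 sections.

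Myelin is the lipid-rich membrane that oligodendrocytes wrap around axons, and it is densest in fiber tracts such as the corpus callosum. Basic proteins hold its cytoplasmic faces together, adhesion proteins and tight junctions seal its layers and edges, and galactolipids made by dedicated enzymes are among its characteristic lipids. Sox10, Olig1 and Olig2 set up the lineage, Myrf switches on the myelin genes in maturing cells, and Nkx6-2 acts late in their differentiation.

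Promoters were shown for the genes whose white matter levels the contrasts below turn on, because Sox10 and Myrf, both members, bind short motifs in myelin gene promoters. RefSeq (GRCm38.p6) held a promoter entry for 21 of the 30 members, and the 250 bases before each start were searched on both strands for the SOX letters ACAAAG and ACAATG, the MYRF letters CTGGCAC and CTGGTAC, and the E-box CAGCTG, whose palindrome reads the same on either strand. Either SOX form lay in 10 of the 21 members' promoters and in 28.2% of all 27025 genes with an entry. Either MYRF form lay in 4 (Mog, Mag, Cnp and Hapln2) and in 6.79% of all genes, and the E-box in 2 and in 14.7%. Of 11 members that passed the test in white matter, 7 had an entry, and the 4 with a match are printed 5′ to 3′ on the gene's own strand, with matches in capitals (a match on the opposite strand shows as its reverse complement, such as CTTTGT). The positions are chr11:100574689-100574938 on the plus strand for Cnp, chr2:58052865-58053114 on the minus strand for Ermn, chr9:120149492-120149741 on the plus strand for Mobp and chr19:41077114-41077363 on the minus strand for Opalin.
Cnp: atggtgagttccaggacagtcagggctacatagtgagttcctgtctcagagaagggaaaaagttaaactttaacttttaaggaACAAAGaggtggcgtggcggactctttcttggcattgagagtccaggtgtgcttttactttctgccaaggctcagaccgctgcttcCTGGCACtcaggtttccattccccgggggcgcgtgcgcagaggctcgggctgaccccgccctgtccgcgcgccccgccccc
Ermn: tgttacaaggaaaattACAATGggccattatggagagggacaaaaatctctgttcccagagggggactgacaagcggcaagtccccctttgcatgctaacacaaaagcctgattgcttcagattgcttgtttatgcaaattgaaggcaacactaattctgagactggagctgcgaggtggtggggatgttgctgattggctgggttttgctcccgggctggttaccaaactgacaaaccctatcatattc
Mobp: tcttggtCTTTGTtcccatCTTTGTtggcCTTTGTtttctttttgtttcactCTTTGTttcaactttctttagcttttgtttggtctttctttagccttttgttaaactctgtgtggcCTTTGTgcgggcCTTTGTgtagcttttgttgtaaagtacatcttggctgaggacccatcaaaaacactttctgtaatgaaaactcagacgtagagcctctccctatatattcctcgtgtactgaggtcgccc
Opalin: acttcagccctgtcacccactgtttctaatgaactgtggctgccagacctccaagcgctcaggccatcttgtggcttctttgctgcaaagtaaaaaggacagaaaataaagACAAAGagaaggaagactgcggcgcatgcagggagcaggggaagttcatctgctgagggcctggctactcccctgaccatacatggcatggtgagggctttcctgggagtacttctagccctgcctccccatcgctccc
Mobp held 6 matches, all of them SOX letters, Cnp 1 SOX and 1 MYRF match, and Ermn and Opalin 1 SOX match each. Cldn11, Mal and Ugt8a had an entry and no match in this window. These matches are descriptions of letters and were not set against the expression values.

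Spots, each a small region that can hold several cells, were placed by clustering that left the 30 genes out and were named from other marker genes. White matter comprised 1417 of 14524 spots (150 to 316 per section), and grey matter was read from 1040 spots per section drawn in the same number per region. White matter sums held 96087 to 365088 UMIs and grey matter sums 12210708 to 16612014. The median white matter spot held 2235.5 UMIs in E3 young, 793 in E4 young, 542 in E3 5xFAD, 497 in E3 aged, 349 in E4 5xFAD and 296 in E4 aged, so that white matter values of the aged and 5xFAD sections rest on shallower spots. Grey matter spots were far deeper, with medians of 11411.5 to 15412 UMIs per section. The white matter cluster had the lowest median depth of all 19 clusters (526 UMIs), so the compartments also differ in depth. The E4 aged section was the smallest, with 1688 spots and only 197 in cortex against 740 to 961 elsewhere. The tissue masks marked 2225 to 3270 spots per section, of which 1688 to 2773 had a barcode in the count matrix. In ST spots, fewer oligodendrocytes and less RNA per oligodendrocyte cannot be told apart.

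The 30 genes together made up 3.82% of white matter UMIs in E3 young (exact 95% binomial interval 3.75 to 3.88) and 3.80% in E4 young, 3.69% and 3.21% in the E3 and E4 aged sections, and 2.71% and 2.65% in E3 and E4 5xFAD. Every set of 6 section values below follows this order, E3 before E4 within each condition. Both 5xFAD sections lay below the other 4, and E4 aged lay between them and the rest. In grey matter the same sum was 0.490% and 0.578% in young, 0.433% and 0.452% in aged and 0.396% and 0.470% in 5xFAD sections. There the groups overlapped, with E4 5xFAD above both aged sections. Mbp, myelin basic protein, which compacts the sheath, gave 33.3% to 37.0% of the members' white matter UMIs. All intervals here cover counting error only.

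**Figure D1:**
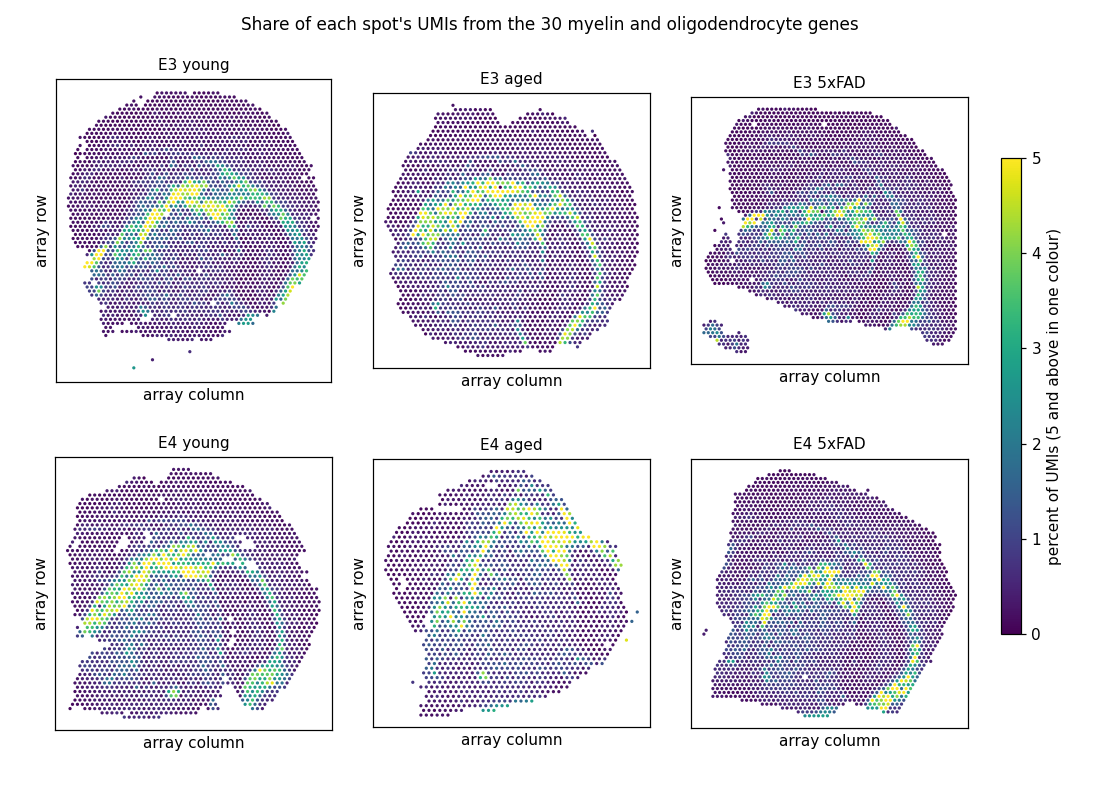
Each panel is 1 section and each point is 1 spot at its array column and row, coloured by the share of its UMIs that came from the 30 genes. The summed white matter share was 2.65% to 3.82% of UMIs, against 0.396% to 0.578% in grey matter. All spots are drawn, those of the ventricular system and of unnamed clusters included.

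The contrast between compartments was a ratio of 5.64 (E4 5xFAD) to 8.53 (E3 aged) in the summed share. It is given without a test, since the regions were set by genes that go with the members. The ratio depended on the choice of spots. An alternative white matter took the 10% of spots with the lowest neuronal marker share outside meninges and ventricular system, and gave 2.78 to 4.35. Clustering without centring gave 6.92 to 10.4. Set against cortex alone the ratio was 7.09 to 12.7, and against thalamus alone 3.98 to 6.42. It stayed above 1 in all 6 sections in each of these. All 30 genes were higher in white than in grey matter in 6 of 6 sections. The decline with distance was steep. The median share over sections was 3.45% in white matter, 0.910% 1 array step away, 0.548% at 2 steps and 0.463% at 3, then 0.443% to 0.495% at 4 to 7 steps and 0.363% at 8 or more.

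**Figure D2:**
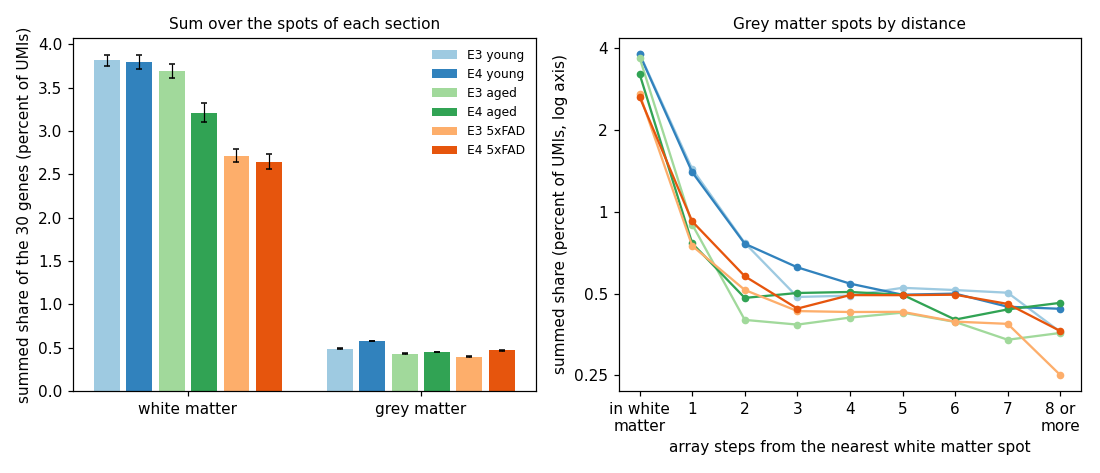
Left, summed share of the 30 genes in percent of UMIs by compartment, 1 bar per section with exact 95% binomial bars; right, the same share (log axis) against distance from the nearest white matter spot in array steps, 1 line per section. White matter bars fall from 3.82% in E3 young to 2.65% in E4 5xFAD, and every line drops between white matter and the first step.

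Among regions other than white matter, the ventricular system had a mean share of 1.81% ± 0.48 (SD, n = 6 sections), most of it from Enpp2 in 5 of the sections, and the other 29 members made up 0.277% to 0.693% there. Spots of clusters left unnamed had 1.11% ± 0.47 and meninges 0.474% ± 0.177. The 5 grey regions ranked thalamus (0.645% ± 0.072), cerebral nuclei (0.542% ± 0.135), hypothalamus (0.478% ± 0.090), hippocampus (0.369% ± 0.091) and cortex (0.316% ± 0.039). Hypothalamus exceeded hippocampus by more than the SD of either. Thalamus against cerebral nuclei and hippocampus against cortex differed by more than the smaller but less than the larger of their SDs, and cerebral nuclei against hypothalamus by less than either SD. These SDs span genotypes and conditions, and the regions share sections. Within sections thalamus lay below cerebral nuclei in E3 young (0.594% against 0.682%). Hippocampus lay below cortex in E4 aged (0.299% against 0.304%) and E4 5xFAD (0.3729% against 0.3736%), and cerebral nuclei below hypothalamus in E4 5xFAD (0.423% against 0.457%). Among grey regions, 25 members had their highest mean level in thalamus and 4 (Cldn11, Mal, Fa2h and Anln) in cerebral nuclei. Nkx6-2 was alone in peaking in hypothalamus, at a mean of 43.7 CPM (UMIs of a gene scaled to the total of its sum) against 12.9 in cortex. Cortex was lowest for every member except Enpp2 and Cryab, which were lowest in hippocampus.

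Enpp2, which encodes autotaxin, a secreted lysophospholipase, was the single member with a higher level outside white matter. Its ventricular level was 15260 and 1983 CPM in young, 11037 and 18684 in aged and 13656 and 18076 in 5xFAD sections, E3 before E4 as throughout. E4 young stood far below the other 5 sections and was still above any white matter value. White matter Enpp2 was 1378 and 1362 CPM in young, 1158 and 1228 in aged and 847 and 746 in 5xFAD sections. Choroid plexus cells, found in the ventricles, are a known source of Enpp2. Markers of the ventricular system, choroid plexus and ependyma together, are therefore given below beside Enpp2.

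The ratio of white to grey matter level, taken gene by gene, had its highest medians over sections for Anln (10.6), Ermn (10.1) and Cldn11 (9.77) and its lowest for Olig2 (3.79), Olig1 (3.98) and Qdpr (4.297). Anln, anillin, a scaffold of septin filaments in myelin, stood at 208 and 193 CPM in young, 219.7 and 271 in aged and 206 and 155 in 5xFAD sections of white matter. No group stood apart for this gene. Olig2, a lineage factor that precursors and mature cells share, read 115 and 109.6 CPM in young, 135 and 83.3 in aged and 72.5 and 42.2 in 5xFAD sections, with both 5xFAD sections below the rest. Qdpr, which regenerates tetrahydrobiopterin, read 1101 and 1143 CPM in young, 1363 and 937 in aged and 825 and 999 in 5xFAD sections, and its 5xFAD and aged sections overlapped. Levels here are not scaled to transcript length, so values are set against each other within a gene only.

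**Figure D3:**
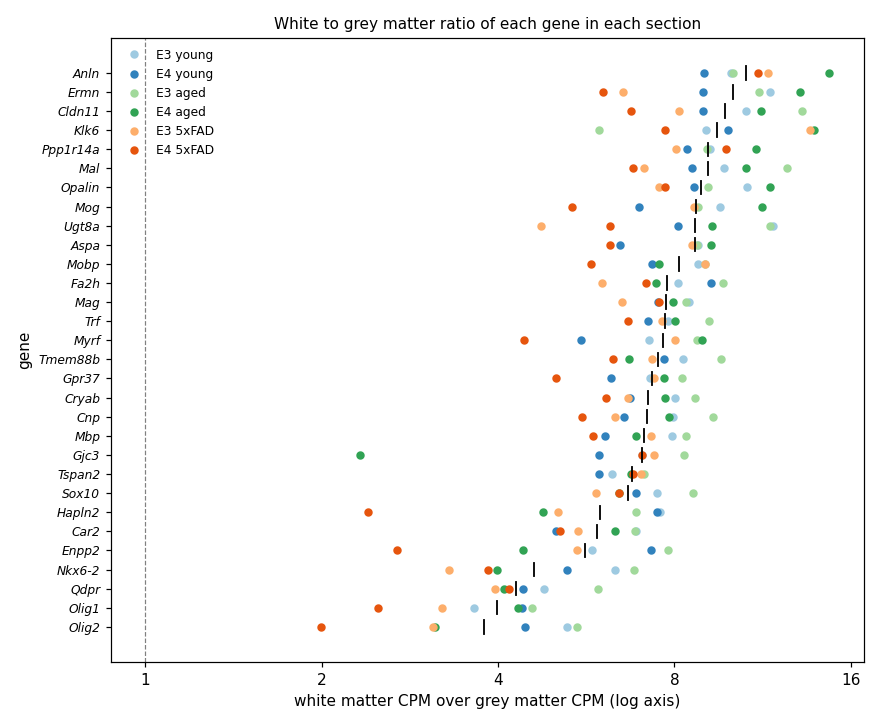
White to grey matter ratio of CPM (log2-spaced axis) for each of the 30 genes, 1 point per section. Every point lies right of the dashed line at 1; median ratios run from 10.6 (Anln) down to 3.79 (Olig2).

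Which members differed with the 5xFAD transgenes was asked first in white matter. Of the 30 genes, 11 fell and none rose, where the same test called 1.88% of all 4100 genes tested. An unadjusted p below 0.05 was reached by 23 of the 30 and by 456 of the 4100. The median log2 fold change was -0.57 over the members and 0.01 over all genes. By role, 7 of 15 structural genes (median -0.63), 3 of 10 enzymes and secreted proteins (median -0.43) and 1 of 5 transcription factors fell. Only Klk6 and Trf had fold changes above 0, and neither passed. The test was edgeR's quasi-likelihood test on the 6 section sums with genotype and condition as terms. It was adjusted over all genes and leaves 2 residual degrees of freedom. The counts under other settings that follow are given without the share of all genes called. With DESeq2 in its place 1 member, Mal, passed, without the E4 young section 4 did (Ermn, Mal, Ugt8a and Enpp2), without E3 5xFAD 7 did, and with every spot of the white matter cluster kept, a setting added after seeing the data, none did.

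Mbp, Mobp and Mal transcripts fell in 5xFAD white matter. Mbp read 14128 and 13573 CPM in young, 12292 and 11562 in aged and 9400 and 8997 in 5xFAD sections, and both 5xFAD sections lay below all others. Its log2 fold change was -0.65 ± 0.16 (SE; edgeR adjusted p = 0.0104), and section against section it was -0.59 in E3 (counting interval -0.67 to -0.51) and -0.59 in E4 (-0.69 to -0.50). Mobp, a second basic protein of compact myelin, read 3774 and 4029 CPM in young, 3859.5 and 3164 in aged and 2648 and 2518 in 5xFAD sections. The 5xFAD pair was again lowest, with a log2 fold change of -0.65 ± 0.15 (edgeR adjusted p = 0.00709). Mal, a raft proteolipid that sorts myelin proteins, read 1767 and 1863 CPM in young, 1708 and 1259 in aged and 931 and 929 in 5xFAD sections. It had the smallest adjusted p of the 30, with a log2 fold change of -1.02 ± 0.16 (edgeR adjusted p = 7.56e-06).

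Cldn11, Cnp, Ermn and Opalin also fell, while Mag and Gjc3 did not pass. Cldn11, the claudin of the tight junctions between myelin layers, read 1829.7 and 1894 CPM in young, 1812 and 1384 in aged and 1193 and 1203 in 5xFAD sections (log2 fold change -0.69 ± 0.15, edgeR adjusted p = 0.00375). Cnp, a phosphodiesterase that keeps cytoplasmic channels of the sheath open, read 1945 and 1931 CPM in young, 1912 and 1603 in aged and 1344 and 1358 in 5xFAD sections (-0.58 ± 0.15, edgeR adjusted p = 0.0205). For both, E3 aged matched the young sections, E4 aged lay between, and the 5xFAD pair was lowest. Ermn, ermin, a cytoskeletal protein of late oligodendrocytes, read 581 and 527 CPM in young, 614 and 583 in aged and 295 and 253 in 5xFAD sections, with both aged sections above the young ones. Its log2 fold change was -1.06 ± 0.19 (edgeR adjusted p = 0.000186). Opalin, a sialylated membrane protein of the oligodendrocyte, was the exception in order at 345 and 449 CPM in young, 199.7 and 302 in aged and 195 and 246 in 5xFAD sections. Its E3 aged section was as low as E3 5xFAD, and it was alone among the 11 in that the 5xFAD sections overlapped the others (-0.90 ± 0.21, edgeR adjusted p = 0.00641). It rested on 35 UMIs in each 5xFAD section.

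Both enzymes of galactolipid synthesis among the members fell. Ugt8a, which adds galactose to ceramide, read 378 and 318 CPM in young, 404 and 260.2 in aged and 151 and 189.9 in 5xFAD sections, and had the largest drop of the 30 genes (log2 fold change -1.11 ± 0.23, edgeR adjusted p = 0.00173). Fa2h, which hydroxylates the fatty acids of those lipids, read 304 and 397 CPM in young, 295 and 219 in aged and 173 and 183 in 5xFAD sections (-0.998 ± 0.229, edgeR adjusted p = 0.00601). In both genes the E4 aged section was nearest to the 5xFAD pair. Enpp2 fell by 0.83 on the log2 scale (SE 0.16, edgeR adjusted p = 0.000322), from the levels given above. Beside it, the 10 ventricular markers took 0.514% and 0.391% of white matter UMIs in young, 0.149% and 0.375% in aged and 0.261% and 0.170% in 5xFAD sections, and Ttr, the choroid plexus transthyretin, also fell (-1.10 ± 0.21, edgeR adjusted p = 0.000347). The part of ventricular tissue in the Enpp2 value was not tested.

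Olig1 was the transcription factor that passed. It read 619 and 751 CPM in young, 704 and 645 in aged and 452 and 352 in 5xFAD sections, with both 5xFAD sections below the rest (log2 fold change -0.79 ± 0.18, edgeR adjusted p = 0.00611). Olig2 had a fold change of -0.95 ± 0.37 on the log2 scale and an edgeR adjusted p of 0.256, on far fewer UMIs. For Sox10, Myrf and Nkx6-2 the log2 values were -0.38, -0.19 and -0.83, and none passed.

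**Figure D4:**
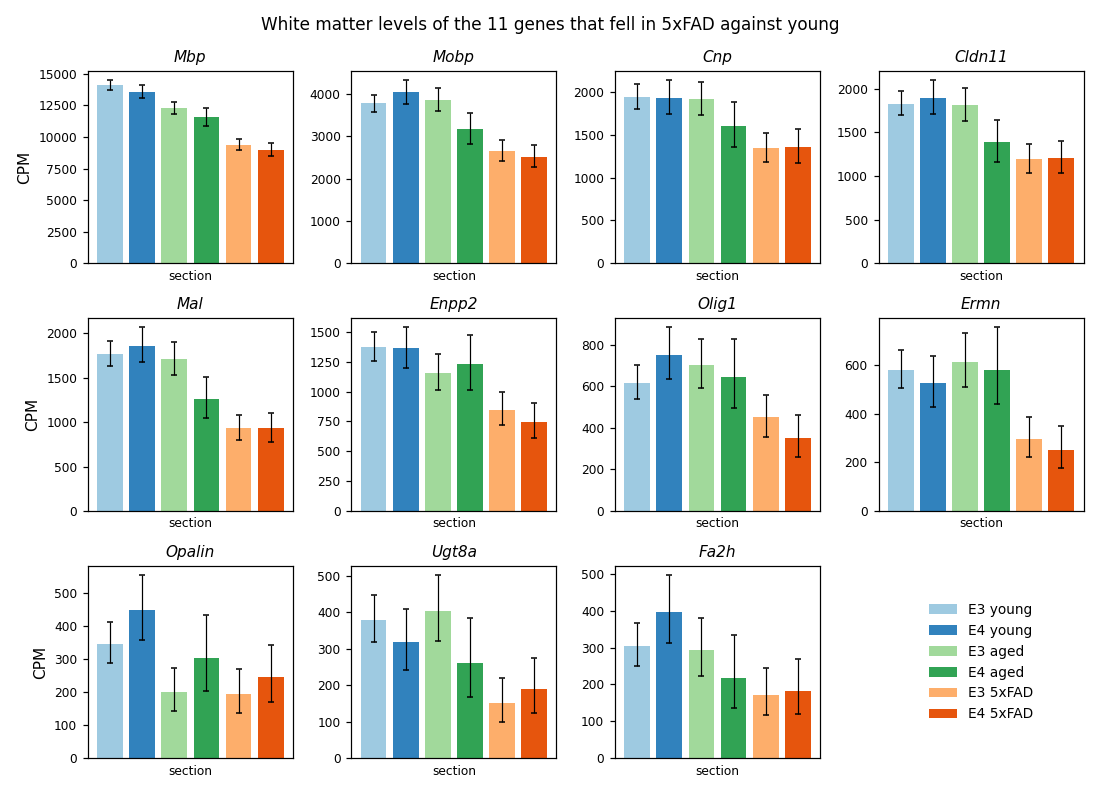
White matter CPM of the 11 genes that fell in 5xFAD against young, 1 bar per section from 0 with exact 95% Poisson bars. The 5xFAD bars are the lowest pair for 10 of the 11; for Opalin the E3 aged bar (199.7 CPM) stands at the height of E3 5xFAD (195 CPM).

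Abundant members that did not pass differed in their order of sections. Trf, transferrin, the iron carrier that oligodendrocytes make, read 2284 and 2197 CPM in young, 2876 and 2102 in aged and 2570 and 2659 in 5xFAD white matter, and the 5xFAD sections lay inside the range of the others (log2 fold change 0.17 ± 0.15, edgeR adjusted p = 0.749). Its share of the members' UMIs was 5.99% and 5.79% in the young sections, 7.79% and 6.54% in the aged and 9.47% and 10.0% in the 5xFAD sections. Car2, the carbonic anhydrase of the oligodendrocyte, read 1394 and 1132 CPM in young, 1448 and 1322 in aged and 1043 and 992 in 5xFAD sections (-0.37 ± 0.15, edgeR adjusted p = 0.299). Cryab, a small heat shock protein, read 1271 and 1252 CPM in young, 1338 and 1093 in aged and 937 and 1034 in 5xFAD sections (-0.41 ± 0.15, edgeR adjusted p = 0.222). In Car2 and Cryab both 5xFAD sections were lowest without passing the test.

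Counting sections alone, both 5xFAD values lay below all 4 others for 18 of the 30 members, where 8% of all genes did, and above all others for 0. This included 10 of the 11 that passed and, among members that did not, Mog, Aspa, Gpr37, Sox10, Nkx6-2, Car2, Cryab and Olig2. Mog, an outer surface protein and autoimmune target, came nearest to the threshold (-0.63 ± 0.18, edgeR adjusted p = 0.0585). For Mag, Tspan2, Hapln2, Gjc3, Tmem88b, Anln, Ppp1r14a and Qdpr the 5xFAD log2 values ran from -0.68 (Hapln2) to -0.19 (Anln). Gjc3, a connexin of the sheath, had its lowest level in E4 aged, where it rested on 5 UMIs.

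Other genes moved in the same white matter sums. Of 27 other oligodendrocyte and myelin genes tested from a list of 30, 4 fell and none rose (median -0.54). They were Gamt, of creatine synthesis (-1.41), the lysophosphatidic acid receptor Lpar1 (-1.34), the nodal and paranodal adhesion gene Nfasc (-1.06) and Ndrg1 (-0.66). Part of this list, with Gamt, Lpar1 and Ndrg1 in it, also served as the markers that named the white matter cluster. Among 19 further genes of myelin lipid synthesis and turnover, 1 fell, the acyl-CoA synthetase Acsl1 (-2.48 ± 0.68, edgeR adjusted p = 0.0349), with a list median of -0.17. From 9 genes that oligodendrocytes and other glia raise in ageing and disease, 4 rose: C4b (2.98), H2-D1 (2.18), Serpina3n (1.71) and B2m (1.39). Precursor genes gave no call among 6 tested, and neuronal genes none among 14 (median 0.20). Of region markers, the hypothalamic peptide genes Hcrt (2.68) and Pmch (2.03) with Resp18 (1.15), and the striatal peptide gene Penk (0.91), rose in white matter. Hcrt and Pmch went below 0 without the E3 5xFAD section.

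Markers of other cell types and of RNA quality moved with the 5xFAD groups. The 11 microglial markers, none at 0, took 0.128% and 0.111% of white matter UMIs in the young sections, 0.195% and 0.225% in the aged and 0.417% and 0.478% in the 5xFAD sections, and 8 of 10 tested rose, among them Trem2 (2.91), Tyrobp (2.73), C1qb (2.13) and C1qc (2.08). Of 9 astrocyte markers, whose sum ran from 0.297% to 0.485%, Gfap rose (1.85). The 11 RNA quality genes summed to 8.88% to 12.7%, and Malat1 (-1.59) and the ribosomal Gm42418 (-0.89) fell. Neuronal markers ran from 0.459% (E4 young) to 0.592% (E3 5xFAD) of white matter UMIs. In grey matter they ran from 0.961% (E4 young) to 1.12% (E3 aged), so white matter spots were not free of neuronal RNA. The part of these shifts in the members' values was not tested. Without any scaling for composition the 5xFAD contrast called 10 members, and with library sizes from the non-member genes 12, lower in each case.

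The same question was asked of grey matter, where oligodendrocytes are sparser. There 5 of the 30 genes fell and none rose in 5xFAD against young, while 1.95% of 15291 genes were called, and the members' median was -0.30. Mbp read 1780 and 2226 CPM in young, 1466 and 1679.7 in aged and 1287 and 1552 in 5xFAD sections (log2 fold change -0.57 ± 0.08, edgeR adjusted p = 0.00731). Mal read 182 and 217 CPM in young, 137 and 119 in aged and 131 and 137 in 5xFAD sections (-0.66 ± 0.11, edgeR adjusted p = 0.0239). For both genes the aged and 5xFAD sections overlapped, with the young sections on top. Tspan2, a tetraspanin of the sheath, read 99.4 and 109.7 CPM in young, 70.3 and 70.9 in aged and 72.3 and 73.4 in 5xFAD sections (-0.60 ± 0.08, edgeR adjusted p = 0.00645). Fa2h read 37.5 and 42.9 CPM in young, 30.5 and 29.4 in aged and 28.7 and 25.5 in 5xFAD sections (-0.65 ± 0.11, edgeR adjusted p = 0.025). Olig1 read 169.9 and 171 CPM in young, 154 and 149 in aged and 141 and 141 in 5xFAD sections (-0.36 ± 0.07, edgeR adjusted p = 0.0486). In Fa2h and Olig1 the 5xFAD pair was lowest by a small margin over the aged sections. The counts that follow are given without the share of all genes called in the same fit. Leaving out single sections gave 3 calls (without E4 young or E4 5xFAD), 9 (without E3 young) or 15 (without either aged section), and 7 without E3 5xFAD.

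Both 5xFAD sections lay below all others in grey matter for 8 members (Anln, Aspa, Gjc3, Gpr37, Sox10, Fa2h, Car2 and Olig1), where 4.94% of genes did, and above all others for Trf and Hapln2, a link protein of the nodal matrix. Grey matter Trf read 293 and 304 CPM in young, 314 and 262 in aged and 337 and 399 in 5xFAD sections (0.22 ± 0.11, edgeR adjusted p = 0.429). Of the 30 other oligodendrocyte genes, Bcas1 fell (-0.47) and Cd9, a tetraspanin that other glia also make, rose (1.13). Of 25 lipid genes Pex5l fell (-0.51). Microglial markers rose here for 10 of 11, and their sum ran from 0.0556% (E4 young) to 0.220% (E4 5xFAD). RNA quality genes fell for 8 of 11, Malat1 by 1.15 on the log2 scale, and their sum ran from 9.32% (E4 5xFAD) to 13.5% (E4 young). Of the ventricular markers Ccdc153 (-2.05) and Tmem212 (-1.78) fell, as did Rora (-0.49), a thalamic marker. Haemoglobin genes moved both ways, all 4 higher in aged (Hba-a2 2.04, Hba-a1 1.78, Hbb-bt 1.68 and Hbb-bs 1.68) and all 4 lower in 5xFAD sections (Hba-a1 -2.61, Hbb-bt -2.25, Hba-a2 -1.98 and Hbb-bs -1.89). The part of these in the members' calls was not tested.

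Whether the 5xFAD change differed between compartments was tested as an interaction within sections. Enpp2 alone passed, at -0.70 ± 0.15 on the log2 scale (edgeR adjusted p = 0.00984), where 0.0582% of 10310 genes were called. At an unadjusted p below 0.05 were 8 members and 554 of all genes. The members' median difference was -0.20. Grey matter Enpp2 read 238 and 187 CPM in young, 149 and 278 in aged and 155 and 277 in 5xFAD sections, and showed no common order by condition. The Enpp2 difference was -0.14 without E4 young and -1.44 without E3 young, DESeq2 called no member, and Ttr (-1.45) and Pmch (1.78) differed in the same test. Ttr turned above 0 without E4 young or E4 5xFAD. For Mbp the difference was -0.08 ± 0.10, and for Mal -0.38 ± 0.15 (edgeR adjusted p = 0.721).

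**Figure D5:**
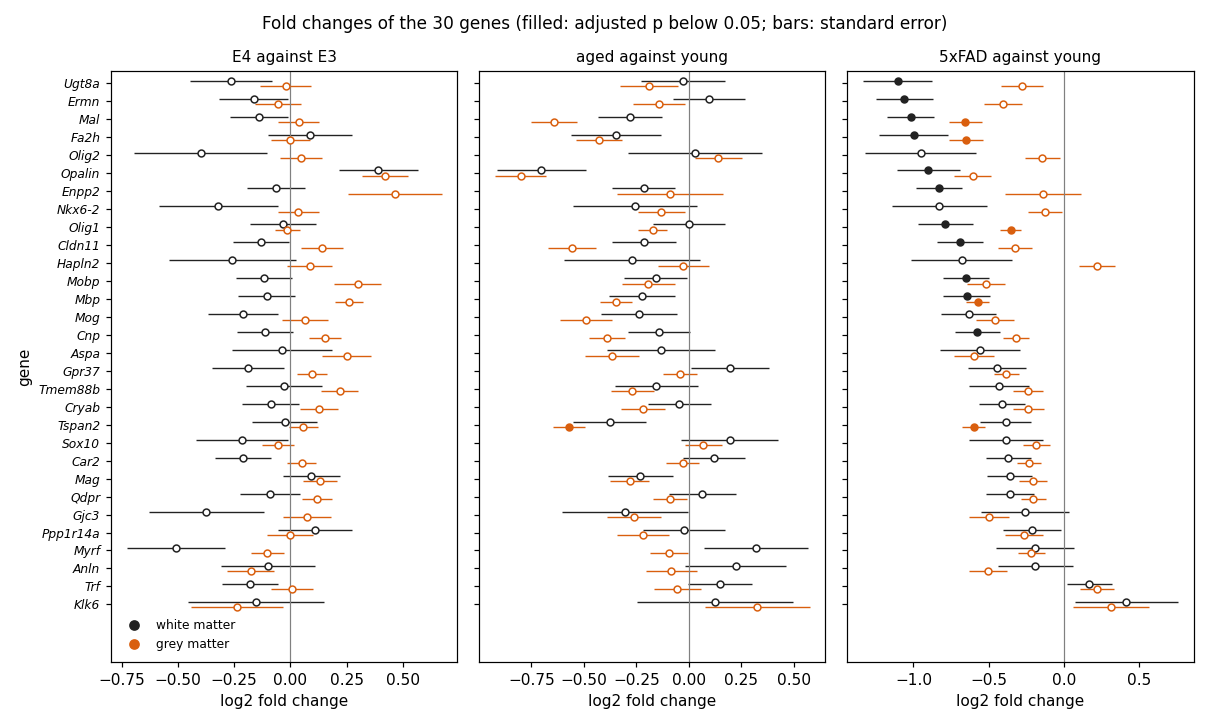
Log2 fold change of each of the 30 genes (rows) in white matter (black) and grey matter (orange) for the 3 contrasts (panels), with standard error bars; filled points have an adjusted p below 0.05. In the 5xFAD panel 11 black and 5 orange points are filled, all left of 0; in the aged panel 1 orange point (Tspan2) is filled, and in the E4 against E3 panel none.

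Age was asked next, in aged against young sections. In white matter no member passed, where 0.171% of all genes were called, and DESeq2 called none either. By edgeR 2 of the 30 members had an unadjusted p below 0.05, as had 272 of all 4100 genes. The members' median was -0.14, with 11 of 30 above 0. Opalin had the largest drop (-0.70 ± 0.21, edgeR adjusted p = 0.217), then Tspan2 (-0.38 ± 0.17, edgeR adjusted p = 0.691), whose white matter levels were 622 and 652 CPM in young, 499 and 479 in aged and 507 and 499 in 5xFAD sections. Its aged and 5xFAD sections overlapped and all lay below the young ones. Genes that did rise with age in white matter included C4b (1.61), Gfap (1.17) and the microglial protease Ctss (1.10), with the haemoglobin genes Hba-a2 (3.04) and Hbb-bs (2.02). By genotype, the members' median section ratio was 0.04 in E3 and -0.25 in E4, a difference that was not tested.

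In grey matter 1 member fell with age and none rose, against 0.157% of all genes. It was Tspan2 (-0.57 ± 0.08, edgeR adjusted p = 0.0446), whose 2 aged values of 70.3 and 70.9 CPM lay well below 99.4 and 109.7 in the young sections. Opalin (32.5 and 51.9 CPM young, 21.9 and 25.9 aged; -0.80 ± 0.12, edgeR adjusted p = 0.0786) and Mal (-0.64 ± 0.11, edgeR adjusted p = 0.121) followed without passing. The members' median was -0.19, with 3 above 0. DESeq2 called 5 members, all lower. The calls were lost when E4 young or E4 aged was left out. The age contrast did not differ between compartments for any member by edgeR, where 0.0388% of genes were called, and DESeq2 called 0. There 2 members had an unadjusted edgeR p below 0.05, as had 495 of all 10310 genes. Among list genes, Ttr (-1.05) and the neuronal calcium sensor Hpca (-1.14) differed, and both turned above 0 with clustering without centring, Ttr also without E4 young.

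Grey regions were also tested separately, on all their spots and without balancing the clusters inside a region between sections. In the thalamus, 1 cluster of 68 spots came to 98.53% from a single section. In the cerebral nuclei 15 members fell in 5xFAD (1.37% of genes called) and 7 in aged sections (0.22%). Mobp there read 717 and 812 CPM in young, 549.8 and 510.2 in aged and 332 and 382 in 5xFAD sections (5xFAD log2 fold change -1.19 ± 0.11, edgeR adjusted p = 2.9e-08), and Mbp 2587 and 2669.7 CPM in young, 1791 and 1851 in aged and 1302 and 1373 in 5xFAD sections (-1.06 ± 0.10, edgeR adjusted p = 2.9e-08). For both the order was young, aged, 5xFAD with no overlap between conditions. In the hypothalamus 10 members fell in 5xFAD (0.722%) and 4 in aged sections (0.316%), with Mal lowest in 5xFAD (-0.90 ± 0.10, edgeR adjusted p = 0.000194). In the thalamus no member passed in 5xFAD (1.87%) or aged sections (0.15%), with 10 and 5 members at an unadjusted p below 0.05. In the cortex none passed in 5xFAD (0.989%) or aged sections (0.0201%), with 9 and 7. The shares of all genes at that unadjusted level are not given for single regions. Mbp read 2130 and 2986 CPM in young, 2173 and 2606 in aged and 1843 and 2214 in 5xFAD sections of the thalamus, and 1077 and 1269 CPM in young, 977 and 1112 in aged and 849 and 1194 in 5xFAD sections of the cortex. For Mbp, each 5xFAD section lay below the young section of its own genotype in both regions. The summed share of the members did not do so in E4 cortex, at 0.374% in 5xFAD against 0.348% in young. In E3 cortex it was 0.268% against 0.312%. Differences between regions were not tested.

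In the hippocampus 6 members fell and 1 rose in 5xFAD (1.13% of genes called), and 6 fell in aged sections (0.386%). The 6 lower in 5xFAD were Mbp, Mal, Tspan2, Opalin, Cnp and Gpr37, and in aged sections Mbp, Mal, Tspan2, Opalin, Cnp and Cldn11. Opalin read 38.0 and 56.6 CPM in young, 20.5 and 19.2 in aged and 19.9 and 31.2 in 5xFAD sections, with both young sections above all others (aged -1.19 ± 0.17, edgeR adjusted p = 0.00465; 5xFAD -0.92 ± 0.17, edgeR adjusted p = 0.0152). The gene that rose was Klk6, a secreted serine protease of oligodendrocytes, singled out after its values were seen. It read 3.28 and 2.20 CPM in young, 4.86 and 4.21 in aged and 8.24 and 12.6 in 5xFAD sections (1.98 ± 0.36, edgeR adjusted p = 0.0106), and rested on 14 to 72 UMIs per section. Both 5xFAD sections stood above the rest. In the cortex both 5xFAD sections were again highest, at 4.87 and 9.96 CPM against 3.18 to 4.60 in the other 4, without passing (0.90 ± 0.31, edgeR adjusted p = 0.366). The 5xFAD sections overlapped the others for Klk6 in thalamus, hypothalamus and cerebral nuclei, and in the nuclei it ranged from 5.92 (E4 aged) to 20.5 CPM (E3 aged).

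The members that fell with age recurred over regions. Opalin, Mal, Cldn11 and Tspan2 passed in aged against young sections in the hippocampus, hypothalamus and cerebral nuclei alike, and Mbp in the first and last of these. In the cerebral nuclei Opalin had the largest aged drop (-1.30 ± 0.24, edgeR adjusted p = 0.00529), then Tspan2 (-0.95 ± 0.17, edgeR adjusted p = 0.00493). In the hypothalamus the same 2 read -0.85 ± 0.14 (edgeR adjusted p = 0.0118) and -0.56 ± 0.10 (edgeR adjusted p = 0.0259). The regional fits share sections and are not independent of each other.

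APOE genotype was asked last. Over the 3 conditions no member passed in E4 against E3 in white matter, where edgeR called 0.0488% of genes and DESeq2 called 0 members. An unadjusted edgeR p below 0.05 was reached by 2 members (Myrf -0.51, Opalin 0.39) and by 231 of 4100 genes. The members' median was -0.12, with 4 of 30 above 0. In grey matter no member passed either (0.0262% of genes, DESeq2 0), the median was 0.06 and 21 lay above 0. There 5 members and 1369 of 15291 genes had an unadjusted edgeR p below 0.05. The white minus grey matter difference for E4 had a median of -0.26 and no call (0.0194% of genes, DESeq2 0). Mbp was nearest at -0.36 ± 0.08 (edgeR adjusted p = 0.0547), and 6 members and 420 of 10310 genes had an unadjusted edgeR p below 0.05. Serpina3n was higher in E4 white matter (1.29) and the Ttr difference was -0.87, which turned above 0 without either 5xFAD section.

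Section against section, the summed grey matter share given above was higher in E4 than in E3 in each of the 3 conditions. Gene by gene, E4 exceeded E3 in grey matter for 25 of 30 members in young mice (median log2 ratio 0.24), where 46% of all genes did (median -0.02). It did so for 8 of 30 in aged mice (-0.05; 50.9% of all genes) and for 20 of 30 in 5xFAD mice (0.05; 56.3% of all genes). The matching white matter medians were -0.01, -0.19 and -0.04. With 1 section per group these ratios carry counting error only and no test.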

How the data were processed

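Visium UMI counts were deposited by the authors per gene and spot barcode, with no normalization. The labels name Space Ranger 1.3.0 with STAR 2.5.1b and the builds mm10 and GRCh38, while the file headers name spaceranger 2.0.0 for 1 section and 1.2.2 for 5. Spots inside the deposited tissue mask with a barcode were kept, with mouse genes and 3 human genes. Spots were clustered with Seurat 5.3.0 into 19 clusters, named by marker genes. The settings were 3000 variable genes, 20 components and resolution 0.8, with genes centred within section and the 30 members left out. Without centring 90.16% of all spots kept their region. White matter was less stable: it held 1019 spots without centring, and 1008 of the 1417 white matter spots were among them. Isolated white matter spots (58 of 1475) were dropped, 1 of which, with 65939 UMIs, held 38.46% of the E4 aged white matter cluster. Counts were summed per section and compartment and tested with edgeR 4.0.16 in R 4.3.3 (TMM, filterByExpr, Benjamini-Hochberg over all genes, threshold 0.05), with DESeq2 1.42.0 as an alternative. The fits were tested on simulated data with changes set in the 5xFAD sections. The changed genes were drawn at random from all genes tested, not from the members. Simulated spread was the fitted one for white and grey matter and a fixed value for the difference. The rates of the difference fit are therefore not comparable with those of the others. Of 2-fold changes, the white matter fit recovered 42.9%, the grey matter fit 83.8% and the difference fit 6.32%. Of 4-fold changes they recovered 92.6%, 91% and 41.2%. A member that did not pass in white matter or in the difference can therefore still have changed. Each standard error (SE) of an edgeR fold change was derived as its absolute log2 value over the square root of the quasi-likelihood F statistic. Figures used matplotlib 3.10.9.

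The members, gene lists, regions and rules were chosen with earlier results of these data known. Values in every section are given for members that passed in the white, grey or difference fits, the 8 with the highest mean white matter level, the 3 highest and 3 lowest white to grey ratios, and members whose highest region was not white matter; others are given by ranges and counts, and list genes by at most 4 per list. Regional fits use the same model on all spots of a region. 1 of the 10 non-member genes most alike the members over spots is not reported here. With 1 section per group, p-values measure only the spread left by the additive model.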

Additional observations from a re-analysis of the deposited data

Results flagged for a closer look

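The white minus grey matter difference of Enpp2 in 5xFAD against young was -0.70 on the log2 scale, a difference between compartments that passed edgeR's interaction test. Grey matter Enpp2 moved in opposite directions in the 2 genotypes: in aged against young sections the log2 ratio was -0.68 in E3 and 0.58 in E4, and in 5xFAD against young -0.62 in E3 and 0.57 in E4. Grey matter Trf did so more weakly in aged against young sections, at 0.10 in E3 and -0.22 in E4. The counting intervals of these 6 ratios lay clear of 0, but with 1 section per group the differences between genotypes were not tested. Ventricular markers, which go with Enpp2, ran from 0.0211% (E3 aged) to 0.166% (E4 5xFAD) of grey matter UMIs, and their part was not tested.

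Barcodes outside the tissue masks, which no comparison used, also held member UMIs. Their share was 0.642% and 0.485% in young E3 and E4, 0.443% and 0.823% in aged E3 and E4, and 0.407% and 0.434% in 5xFAD E3 and E4, against 0.490% and 0.452% in grey matter of E3 young and E4 aged, the 2 sections where it lay clearly above grey matter; in the other 4 it was near or below it. These barcodes numbered 6 in E3 5xFAD and 432 to 672 in the others.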

How the results depend on the processing

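White matter sums were shallow (96087 to 365088 UMIs). There was 1 section per group with 2 residual degrees of freedom, which limits the precision of every count below. Shares of all genes called are given for the main and single-region fits only. Counts of members under any other setting, here and above, stand without that share. Over 305 settings of single members that passed, 220 kept their call, 85 lost it and none reversed, and of 150 settings of the counts 20 gave fewer and 29 more than 1.5 times the reported count allows. In white matter 5xFAD against young, where 11 members passed, DESeq2 gave 1, and keeping every spot of the white matter cluster, chosen after seeing the data, gave 0, 1 spot of 65939 UMIs being kept with it; leaving out each section gave 4 (without E4 young) to 12, with 7 without E3 5xFAD. White matter with at least 5000 UMIs per spot was not run, since too few spots were left. In grey matter aged against young, where 1 passed, DESeq2 gave 5, no filter on low counts 4, all grey matter spots 0, the same spots per cluster 6, clustering without centring 3, a second draw 3, cortex and thalamus alone 0, hippocampus 6, hypothalamus 4 and cerebral nuclei 7; leaving out each section gave 0 (without E4 young or E4 aged) to 6 (without E3 aged), with 4 without E3 young or E3 5xFAD and 3 without E4 5xFAD. In grey matter 5xFAD against young, where 5 passed, no filter gave 9, the same spots per cluster 12, at least 5000 UMIs 8, cortex and thalamus alone 0, hypothalamus 10 and cerebral nuclei 15; leaving out each section gave 3 (without E4 young or E4 5xFAD) to 15 (without either aged section), with 9 without E3 young. For E4 against E3 in grey matter leaving out each section gave 0 to 2.

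For the white minus grey matter difference, E4 against E3 gave 1 with scaling on the other genes, 2 with at least 300 UMIs per spot (added after seeing the data) and 0 to 1 without single sections. The aged difference gave 0 to 1, and the 5xFAD difference, where Enpp2 passed, 0 by DESeq2, with all grey matter spots, with every spot of the white matter cluster and with clustering without centring, and 0 to 1 without single sections (0 without E4 young, E4 aged or E4 5xFAD). The cause was not tested for these.

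Genes outside the 30 reversed in 15 settings. Clustering without centring gave Ttr 0.81 in white matter 5xFAD, 0.77 in the aged difference and 0.37 in the 5xFAD difference, and Hpca 1.004 in the aged difference. Cortex alone gave Hbb-bt -0.10 in aged sections, and cerebral nuclei alone Trem2 -0.0185 in aged and Hbb-bs 1.67 and Hba-a1 1.77 in 5xFAD sections. Leaving out each section gave Pmch -2.505 (without E3 5xFAD) to 2.989 and Hcrt -1.282 (without E3 5xFAD) to 3.639 in white matter 5xFAD, and Ttr differences of -2.518 to 0.2145 for E4 against E3, -3.362 to 1.148 for aged and -3.844 to 0.6997 for 5xFAD. A section left alone in its condition was assumed to vary like the others. No paired analysis was possible between groups by replicate number, because each group held 1 section; white and grey matter were compared within section.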

Other observations

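The non-member genes whose spot levels within a section followed the summed member level most closely were Fth1, the ferritin heavy chain (mean r 0.73 over 6 sections), the lipocalin Apod (0.66), Plekhb1 (0.57), the desaturase Scd2 (0.56), the prostaglandin synthase Ptgds (0.49), Sept4 (0.46), the creatine synthesis enzyme Gatm (0.45), Bcas1 (0.45) and Ndrg1 (0.42). Correlations were taken over 1445 to 2644 spots per section with at least 1000 UMIs, which share library and depth, and are given as a description. In every section except E3 young the median white matter spot held fewer than 1000 UMIs, so many white matter spots were left out. Among the members themselves the correlation with their sum, of which each is a part, ran from 0.92 (Mbp) to 0.17 (Olig2).

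Within white matter the spots varied. In E3 young the member share ran from 2.97% (10th percentile of spots) to 5.42% (90th percentile) around a median of 4.14%, and in E4 5xFAD from 1.24% to 5.65% around 2.83%, where the median spot held 10 member UMIs.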
